A study of Mus musculus with 8 samples.

Results

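Loss of *Usp39* in hepatocytes was accompanied by an uneven pattern among 10 genes of the integrated stress response. In livers of 4 *Usp39*-HKO mice, mRNAs of the transcription factors *Atf3* and *Ddit3*, the pseudokinase *Trib3* and the serine synthesis enzyme *Psat1* rose, whereas asparagine synthetase (*Asns*) fell. The rise of *Psat1* rested on single livers and was not called when certain livers were left out. The remaining 5 genes, *Atf4*, *Eif2ak3*, *Ppp1r15a*, *Ddit4* and *Chac1*, did not pass the test. The 10 genes were picked by symbol as sensors, transcription factors and target genes of this response, and all 10 were found among the 55385 gene identifiers of the deposited table.

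The data were bulk liver RNA-seq from 8 male mice on a C57BL/6J background, 5 weeks old and fasted for 16 h. *Usp39*-HKO mice (A469, A470, A471 and A474) carried *Usp39* fl/fl alleles, with exon 2 flanked by loxP sites, together with an Albumin-Cre transgene, which acts in hepatocytes. Control mice (A468, A472, A473 and A475) were littermates that the labels call WT. Each library came from 1 mouse, and the fast was common to both groups.

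The integrated stress response begins with kinases that phosphorylate the alpha subunit of the initiation factor eIF2, among them PERK, the product of *Eif2ak3*, which senses stress in the endoplasmic reticulum. Phosphorylated eIF2 lowers protein synthesis in general and favours translation of the *Atf4* mRNA, so the ATF4 protein can accumulate without a rise of its transcript. ATF4 and its partners then switch on genes for amino acid supply, redox balance, feedback and cell death, many of them through composite C/EBP-ATF elements in the DNA.

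The promoter letters at which ATF4 with a C/EBP partner, or a dimer of the ATF/CREB class, can bind were looked up because the called genes are known targets of such factors. Windows of 250 bases before to 50 bases after the start site came from RefSeq (GRCm38.p6), and all 10 genes had one. The core TGATGNAA, searched on both strands, was present in the windows of 4 of 10 genes, compared with 4.51% of 27025 genes with a window. The palindrome TGACGTCA was present in 1 of 10, compared with 2.03% of genes. Because the 10 genes were picked as part of this response, the shares are set side by side as a description, with no test. The matches have 11 bases on either side and run 5′ to 3′ on the strand of the gene, with the matched letters in capitals.
Atf3, chr1:191183425-191183454, minus strand: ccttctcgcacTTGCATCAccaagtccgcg
Trib3, chr2:152344028-152344057, minus strand: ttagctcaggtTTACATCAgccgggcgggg
Asns, chr6:7693214-7693243, minus strand: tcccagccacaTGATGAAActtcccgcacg
Chac1, chr2:119351038-119351067, plus strand: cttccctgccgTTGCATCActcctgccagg
Ppp1r15a, chr7:45526262-45526291, minus strand: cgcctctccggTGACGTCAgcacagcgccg

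Relative to the RefSeq start site, the core began 110 bases before it in *Atf3*, 193 in *Chac1* and 23 in *Asns*. In *Trib3* the core began at base 15 of the transcribed stretch. Gene coordinates given below are from GENCODE, whose start sites can differ. By these, the cores of *Atf3* and *Asns* lie within the gene and that of *Trib3* before it. In *Asns* the core read along the gene, and in the other 3 on the opposite strand. The palindrome of *Ppp1r15a* began 12 bases before the start. The 4 genes with the core differed in their expression, since *Atf3* and *Trib3* rose, *Asns* fell and *Chac1* did not pass the test. A match is a description of letters, and these data hold no measurement of binding.

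Some properties of the livers bear on every value. Total deposited counts per liver lay between 8589636 and 10418450 in controls and between 9479922 and 10195028 in the knockouts. *Usp39* itself (chr6:72318678-72345184, minus strand) was measured first as a check of the labels. It was 9.58 ± 0.71 FPKM (counted fragments scaled by gene length and by the total of the liver, SD, n = 4) in controls and 8.44 ± 0.29 in *Usp39*-HKO livers, with no overlap and a log2 fold change of -0.41 (SE 0.11, adjusted p = 0.0212). Without scaling beyond the total count the fold change was -0.18 and no longer passed. Only exon 2 was floxed, so reads of other exons and other cell types remain in this sum. Summed FPKM of the hepatocyte markers ranged from 14463 to 16439 in controls and from 12668 to 17393 in *Usp39*-HKO livers, and after TMM scaling 2 of 6 were called lower, with a median log2 difference of -0.32. Macrophage markers (247 to 330 against 461 to 670, with 5 of 6 higher), stellate cell markers (18.6 to 27.4 against 32.6 to 76.6, 4 of 6 higher), cholangiocyte markers (26.7 to 29.0 against 65.2 to 289, 5 of 5 tested higher) and cycling cell markers (3.21 to 7.63 against 17.4 to 34.0, 6 of 6 higher) moved with the genotype. Erythroid markers went the other way (294 to 630 against 139 to 305, 3 of 3 tested lower), as did 2 of 6 endothelial markers (97.5 to 109 against 102 to 106), while 0 of 4 tested neutrophil markers were called and 1 of 4 tested lymphocyte markers was higher. *Cldn7* (cholangiocyte) and *Ccnb1* (cycling) reached 0.5 FPKM in 1 and 2 of the 4 controls but in every knockout liver. The knockout livers thus carried both past the minimum for testing, and the cholangiocyte marker *Krt7* was not tested. No marker of any list was at 0 in all livers. Their part in the results below was not tested, and in bulk tissue a shift in cell numbers and a shift in RNA per cell cannot be told apart. Control A475 stood apart with 527 FPKM of summed pancreatic acinar markers, against at most 2.45 in the other 7 livers, and results that change without it are given with that value.

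To ask which of the genes differed between the genotypes, the quasi-likelihood test of edgeR was run over 14340 genes that reached 0.5 FPKM in 4 or more of the 8 livers. A gene was called at an adjusted p under 0.05. All 10 genes were tested. *Psat1* and *Chac1* reached 0.5 FPKM in 3 and 2 of the 4 controls, respectively, and the other genes in every liver. Of the 10 genes, 4 were called higher, while 10.9% of all tested genes were, and 1 was called lower, while 11.6% of all tested genes were. The number called lower is thus close to the background and the number called higher is above it. Because the genes were chosen with earlier results of these data known, this comparison is a description and not a test. The same 5 genes had no overlap in FPKM between the groups, 4 higher against 23.9% of tested genes and 1 lower against 4.81%. With FPKM rescaled by TMM factors, which correct for a shift of composition, the 4 and the 1 were read against 11.8% and 13% of tested genes. The median log2 fold change of the 10 genes was 0.41, and that of all tested genes was -0.0015.

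**Figure D1:**
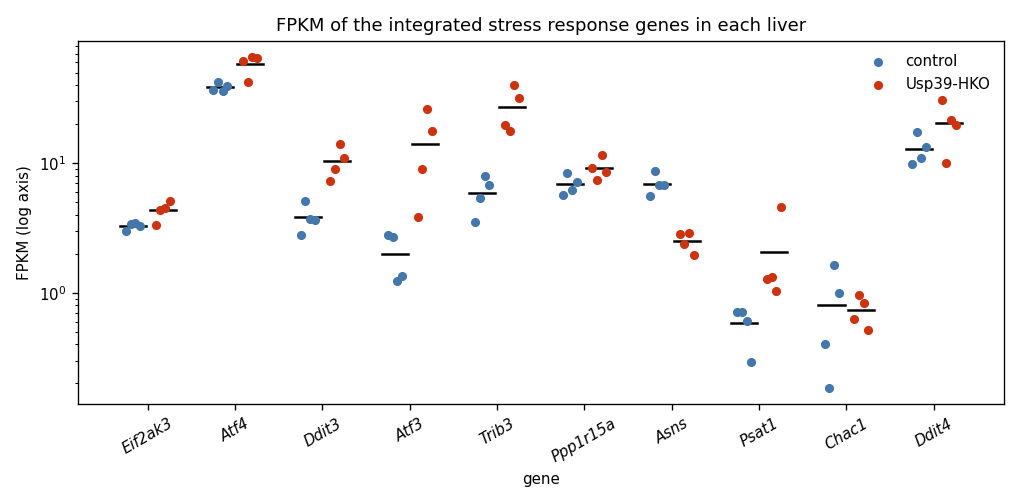
Level of each of the 10 integrated stress response genes in FPKM (log axis) in 4 control and 4 *Usp39*-HKO livers, with 1 point per liver and a line at the group mean. Points of the groups are apart for *Atf3*, *Ddit3*, *Trib3*, *Psat1* and *Asns*, with *Asns* the gene whose *Usp39*-HKO livers (1.97 to 2.91 FPKM) all sit under the controls (5.58 to 8.63 FPKM).

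Per length of transcript, *Atf4* was the most abundant of the 10 mRNAs in both genotypes. Mean FPKM in controls then ran in the order *Ddit4*, *Asns*, *Ppp1r15a*, *Trib3*, *Ddit3*, *Eif2ak3*, *Atf3*, *Chac1* and *Psat1*. Liver ranges of *Asns* and *Ppp1r15a*, *Ppp1r15a* and *Trib3*, *Trib3* and *Ddit3*, *Ddit3* and *Eif2ak3*, *Atf3* and *Chac1*, and *Chac1* and *Psat1* overlapped, so these neighbours did not differ beyond their spread over livers, although *Trib3* was above *Ddit3* within each of the 4 controls. In *Usp39*-HKO livers the order became *Atf4*, *Trib3*, *Ddit4*, *Atf3*, *Ddit3*, *Ppp1r15a*, *Eif2ak3*, *Asns*, *Psat1* and *Chac1*. The stretch from *Trib3* to *Ppp1r15a* overlapped from each neighbour to the next, as did *Asns* with *Psat1*.

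The sensor *Eif2ak3* (chr6:70844515-70905245, plus strand) varied little among controls and more among knockout livers, and it did not pass the test. It was at 2.98, 3.40, 3.46 and 3.30 FPKM in control livers A468, A472, A473 and A475, the order kept for controls throughout, and at 3.31, 4.33, 4.50 and 5.15 FPKM in *Usp39*-HKO livers A469, A470, A471 and A474, likewise kept. A469 lay within the control range and the other 3 knockout livers above it. The means were 3.28 ± 0.21 and 4.32 ± 0.76 FPKM (SD, n = 4 each). On the TMM-scaled log2 scale the difference was 0.15 (95% interval -0.11 to 0.42, adjusted p = 0.392). The exact permutation p (two-sided) was 0.0857 on FPKM and 0.2 on TMM-scaled FPKM. A gene of unknown coding status on the opposite strand, *Gm43292*, shares 485 exon bases with *Eif2ak3*, and the counting was not stated to use strand.

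*Atf4* (chr15:80255184-80257541, plus strand) encodes the transcription factor at the centre of the response. Its levels were 36.4, 42.5, 35.7 and 39.6 FPKM in controls and 61.3, 41.9, 65.7 and 65.1 FPKM in *Usp39*-HKO livers. In FPKM, A470 lay within the control range, and the other 3 knockout livers were above every control. After TMM scaling A470 (38.6) was under the lowest control (39.2). Mean levels were 38.6 ± 3.12 and 58.5 ± 11.2 FPKM (exact permutation p = 0.0571, two-sided, and 0.143 on TMM-scaled FPKM). After TMM scaling the log2 difference was 0.37 (SE 0.14, 95% interval 0.057 to 0.68), with an adjusted p of 0.0853. The call depended on the scaling and on A470. Without scaling beyond the total count the difference was 0.60 (adjusted p = 0.00949), and without A470 it was 0.50 (adjusted p = 0.00835). The transcript level says nothing of the ATF4 protein, which was not measured here.

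*Ddit3* (chr10:127290774-127296288, plus strand), which encodes the pro-apoptotic factor CHOP, rose in every *Usp39*-HKO liver. Controls had 2.80, 5.06, 3.74 and 3.64 FPKM, and *Usp39*-HKO livers had 7.33, 8.99, 14.0 and 11.0 FPKM. The lowest knockout liver was above the highest control. Mean FPKM went from 3.81 ± 0.94 to 10.3 ± 2.87, with a log2 fold change of 1.20 (SE 0.22, adjusted p = 0.00401). Part of its exon sequence lies in overlapping genes, 68 bases shared with *Mars* on the opposite strand and 105 bases with a second *Ddit3* identifier that had no counts.

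*Atf3* (chr1:191170296-191218039, minus strand), a stress-inducible repressor of the ATF/CREB family, had the largest fold change of the 10 genes, with knockout livers that ranged widely. It was at 2.78, 2.67, 1.24 and 1.34 FPKM in controls and at 3.87, 9.06, 25.9 and 17.6 FPKM in *Usp39*-HKO livers. A469 was the lowest knockout liver and was still above all controls, while A471 was the highest. The means of 2.01 ± 0.83 and 14.1 ± 9.70 FPKM corresponded to a log2 fold change of 2.56 (SE 0.50, adjusted p = 0.00520).

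*Trib3* (chr2:152337422-152344032, minus strand), a target of ATF4 and CHOP whose protein restrains ATF4 and AKT signalling, rose in every knockout liver. Control levels were 3.54, 5.41, 7.89 and 6.82 FPKM, compared with 19.8, 17.8, 40.1 and 31.6 FPKM in *Usp39*-HKO livers. The groups were well apart, with the highest control under the lowest knockout liver. The mean rose from 5.91 ± 1.88 to 27.3 ± 10.5 FPKM, with a log2 fold change of 1.97 (SE 0.28, adjusted p = 0.00126).

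*Ppp1r15a* (chr7:45522916-45526268, minus strand) encodes GADD34, which brings a phosphatase to eIF2 and closes the response. Levels of 5.71, 8.42, 6.22 and 7.12 FPKM in controls overlapped with 9.21, 7.38, 11.6 and 8.48 FPKM in *Usp39*-HKO livers. In FPKM, A470 was the only knockout liver under the highest control. After TMM scaling A469, A470 and A474 (9.10, 6.80 and 7.13) were all under the highest control (9.13). The log2 difference was 0.18 (95% interval -0.19 to 0.56, adjusted p = 0.479), with means of 6.87 ± 1.19 and 9.16 ± 1.77 FPKM. The exact permutation p was 0.0571 on FPKM and 0.429 on TMM-scaled FPKM.

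**Figure D2:**
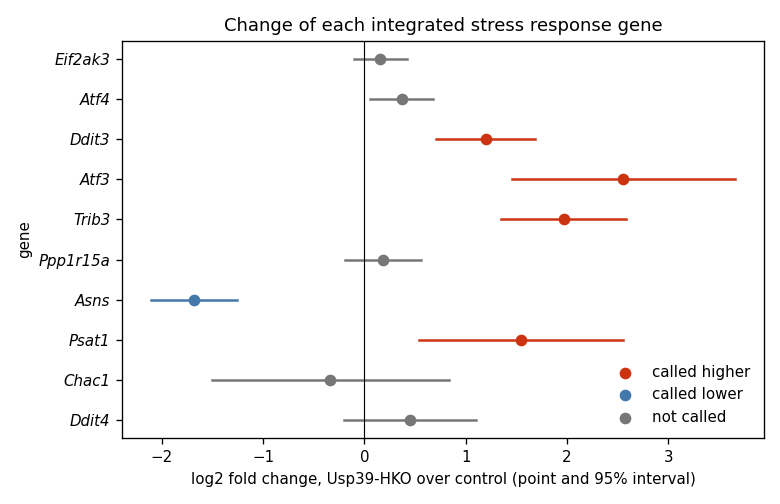
Log2 difference between *Usp39*-HKO and control livers for the 10 genes, from edgeR on counts with TMM scaling (4 livers per genotype), with lines for the 95% interval. *Atf3* (2.56), *Trib3* (1.97), *Psat1* (1.55) and *Ddit3* (1.20) lie above 0 and *Asns* (-1.68) below it after adjustment over 14340 genes.

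The amino acid enzymes of the set went in opposite directions. *Asns* (chr6:7675169-7693254, minus strand), which makes asparagine from aspartate and glutamine, was at 5.58, 8.63, 6.81 and 6.77 FPKM in controls. In *Usp39*-HKO livers it was at 2.86, 2.37, 2.91 and 1.97 FPKM. All 4 knockout livers were under all controls, and they varied little among themselves. Means of 6.95 ± 1.26 and 2.53 ± 0.45 FPKM gave a log2 fold change of -1.68 (SE 0.19, adjusted p = 0.000557).

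*Psat1* (chr19:15904678-15947337, minus strand), a phosphoserine aminotransferase on the path from glycolysis to serine, had few counts. It was at 0.717, 0.711, 0.602 and 0.293 FPKM in controls, from 13 to 30 counts, and 1.28, 1.31, 1.03 and 4.59 FPKM in *Usp39*-HKO livers, from 42 to 185 counts. The groups did not overlap, but A474 was far above the other 3 knockout livers. The mean went from 0.58 ± 0.20 to 2.05 ± 1.69 FPKM, and the log2 fold change was 1.55 (SE 0.46, adjusted p = 0.0327). Without A474 the difference was 0.87 (adjusted p = 0.0769), without control A475 it was 1.31 (adjusted p = 0.0953), and without control A468 or A473 it was 1.67 (adjusted p = 0.0572) or 1.57 (adjusted p = 0.0754), so the call rested on single livers. A474 also had the highest summed cholangiocyte (289 FPKM), macrophage (670 FPKM), stellate cell (76.6 FPKM) and cycling cell (34.0 FPKM) markers, whose part in its *Psat1* level was not tested. A470 was close in stellate cell markers (76.1 FPKM) and A469 in cycling cell markers (30.4 FPKM), with *Psat1* at 1.31 and 1.28 FPKM.

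*Chac1* (chr2:119351229-119354381, plus strand), which degrades glutathione and is a target of ATF4, was measured from 3 to 23 counts per liver. It had 0.399, 0.185, 1.64 and 0.997 FPKM in controls and 0.629, 0.959, 0.832 and 0.516 FPKM in *Usp39*-HKO livers. The knockout values lay inside the control range. At this depth the log2 difference of -0.34 had a 95% interval from -1.51 to 0.83 (adjusted p = 0.697), so changes of either sign within these bounds were compatible with the data.

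*Ddit4* (chr10:59949669-59951834, minus strand), the stress-induced inhibitor of mTORC1 known as REDD1, varied within both groups. Controls were at 9.81, 17.4, 10.9 and 13.3 FPKM and *Usp39*-HKO livers at 30.4, 9.95, 21.7 and 19.7 FPKM. Knockout livers held both the highest value, in A469, and a value near the lowest control, in A470. Means were 12.8 ± 3.35 and 20.4 ± 8.41 FPKM, and the log2 difference was 0.45 (95% interval -0.20 to 1.10, adjusted p = 0.310).

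For each of the 5 called genes FPKM gave an exact permutation p of 0.0286 (two-sided), the smallest that 70 assignments of 8 livers allow. Among knockout livers, A471 had the highest level of 6 of the 10 genes and A470 the lowest level of 4. The ratio of *Trib3* to *Asns* within a liver, chosen after the values were seen and given with no test, removes the total count from the comparison. It was 0.634, 0.627, 1.16 and 1.01 in controls and 6.93, 7.53, 13.8 and 16.1 in *Usp39*-HKO livers. Relative to *Atf4*, *Trib3* was at 0.0972 to 0.221 in controls and 0.323 to 0.610 in knockout livers, and *Asns* was at 0.153 to 0.203 and 0.0302 to 0.0565. These 2 targets of ATF4 thus left the *Atf4* level in opposite directions in all 4 knockout livers. For *Atf3* the ratio to *Atf4* in A469 (0.0632) lay within the control range of 0.0337 to 0.0764.

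**Figure D3:**
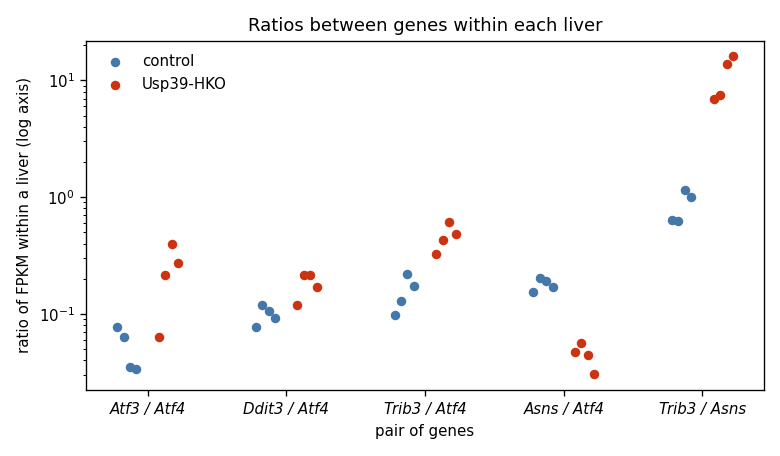
Ratios of FPKM between pairs of genes within each liver (log axis), with 1 point per liver and genotype by colour. *Trib3* over *Asns* runs from 0.627 to 1.16 in controls and from 6.93 to 16.1 in knockout livers.

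The genes with a liver profile most like that of *Atf4* were found by the root mean square distance of centred, TMM-scaled log2 levels over 8 livers. They were *Polr1c* (0.063), a subunit of RNA polymerases I and III, *Tmem159* (0.070), *Maf1* (0.077), a repressor of RNA polymerase III, *Snrpe* (0.079), a spliceosomal Sm protein, and *Rab40c* (0.080). Of these, *Rab40c* rose, with a log2 fold change of 0.45 (SE 0.14, adjusted p = 0.0437), from 4.50 ± 0.15 to 7.25 ± 1.28 FPKM. That call was lost without any liver other than A470, with adjusted p from 0.0605 to 0.118. Nearest to *Atf4* among the other 9 stress response genes was *Ppp1r15a* (0.175), and farthest was *Atf3* (1.25).

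Other genes of the response and its neighbours were read from 9 lists with 95 genes in the table. Of these, 87 were tested, 12 were called higher, where the background over all tested genes was 10.9%, 17 were called lower, where it was 11.6%, and 58 were not called. The 12 include *Tnfrsf10b*, which passed the expression minimum only through the knockout livers. The same backgrounds apply to each list. The lists were chosen with earlier results of these data known, and each is described by its counts and median.

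**Figure D4:**
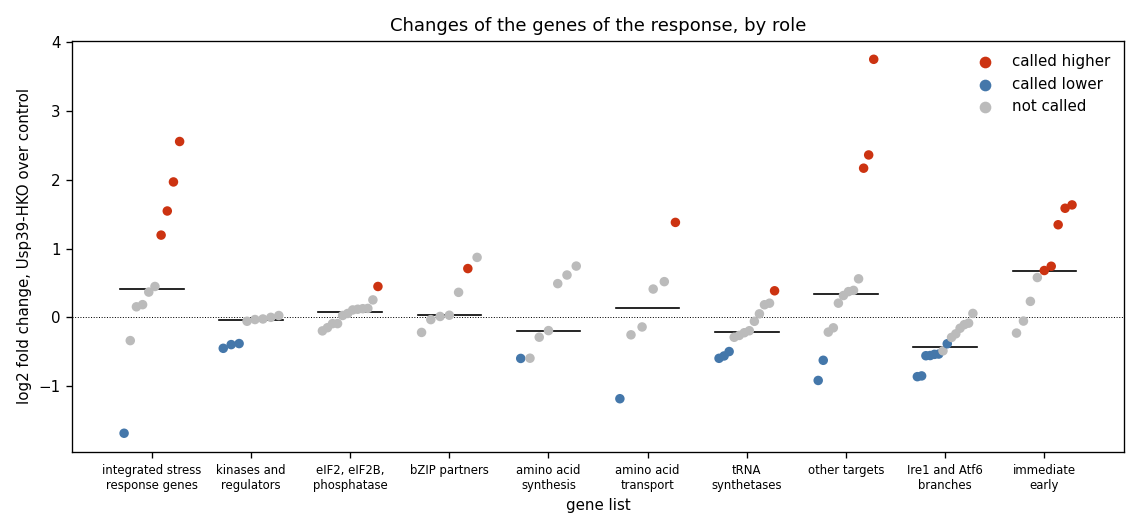
Log2 difference between *Usp39*-HKO and control livers (edgeR, TMM scaling, 4 livers per genotype) for each tested gene of the integrated stress response set and of 9 related lists, with a line at the list median. Medians run from -0.43 for the Ire1 and Atf6 branches of the unfolded protein response to 0.68 for immediate early genes.

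Upstream of *Atf4*, 3 of 8 other eIF2-alpha kinases and regulators were called lower (11.6% of all tested genes were) and none higher (median -0.044). They were *Gcn1*, the activator of the amino acid sensor GCN2 (log2 fold change -0.45, adjusted p = 0.0174), *Eif2ak1*, the haem-regulated kinase (-0.40, adjusted p = 0.0228), and *Dnajc3*, an inhibitor of PERK named because it completes the count (-0.38, adjusted p = 0.0199). These 3 calls were lost without scaling beyond the total count, at -0.22, -0.16 and -0.15. They were also lost without single livers, with adjusted p of 0.05005 for *Gcn1* (A474), up to 0.0825 for *Eif2ak1* (A471, A473, A474 or A475) and up to 0.0600 for *Dnajc3* (A473 or A475). Of 12 subunits of eIF2, eIF2B and the phosphatase, 1 was called, *Eif2s1*, which encodes the phosphorylated alpha subunit and rose from 9.74 ± 0.72 to 15.7 ± 1.63 FPKM (log2 fold change 0.45, SE 0.09, adjusted p = 0.00727). The list median was 0.082. Among 7 bZIP partners and other transcription factors (median 0.031), *Jun* was called higher, at 30.9 ± 5.93 and 60.0 ± 17.9 FPKM with overlapping groups (log2 fold change 0.71, adjusted p = 0.0212). The *Jun* call was lost without A471, A472, A473 or A474, with adjusted p up to 0.0697.

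Calls among genes of amino acid supply went in both directions. Among 7 tested of 10 further synthesis and one-carbon enzymes (median -0.19), only *Shmt2*, the mitochondrial serine hydroxymethyltransferase, was called, from 61.6 ± 6.57 to 47.8 ± 5.19 FPKM (log2 fold change -0.60, adjusted p = 0.00508). *Phgdh*, *Aldh1l2* and *Pycr1* were under the expression minimum. *Mthfd2* passed it only through the knockout livers and was not called (adjusted p = 0.0575). Of 6 tested of 9 amino acid transporters (median 0.14), the neutral amino acid carrier *Slc1a4* rose from 1.26 ± 0.16 to 3.92 ± 1.76 FPKM (1.38, adjusted p = 0.00478) and the glycine transporter *Slc6a9* fell from 3.85 ± 0.76 to 1.97 ± 0.72 FPKM (-1.18, adjusted p = 0.00917). Of 12 cytosolic aminoacyl-tRNA synthetases (median -0.21), *Gars* rose (0.39, adjusted p = 0.0120), and *Eprs* (-0.59, adjusted p = 0.00373), *Mars* (-0.56, adjusted p = 0.00850) and *Tars* (-0.50, adjusted p = 0.0235) fell. *Tars* is named because it completes the count, and its call was lost without A468, A471, A473, A474 or A475, with adjusted p up to 0.073. The *Mars* and *Tars* calls were lost without scaling beyond the total count, at -0.33 and -0.27. Without scaling beyond the total count 3 synthetases were called higher and 1 lower.

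Of 12 tested further targets of ATF4 or CHOP (median 0.35), 3 were called higher and 2 lower. The 3 include *Tnfrsf10b*, whose call could only be higher. The death receptor *Tnfrsf10b* went from 0.143 ± 0.048 to 2.32 ± 0.37 FPKM, from 4 to 10 counts per control to 100 to 143 per knockout liver (log2 fold change 3.75). It passed the expression minimum only through the knockout livers, which fixed the direction of the difference in advance, so its change is given as a description. *Gadd45a*, a growth arrest gene, rose from 0.607 ± 0.069 to 3.77 ± 2.33 FPKM (2.36, adjusted p = 0.00422), and *Gdf15*, a secreted stress hormone named because it completes the count, from 9.58 ± 4.89 to 50.7 ± 34.7 FPKM (2.17, adjusted p = 0.00586). Without A471 the *Gdf15* difference was 1.55 (adjusted p = 0.00719). *Herpud1*, a component of endoplasmic reticulum-associated degradation, fell from 134 ± 27.2 to 83.5 ± 18.6 FPKM (-0.92, adjusted p = 0.00562), and the angiogenic factor *Vegfa* fell from 36.4 ± 1.51 to 27.8 ± 1.96 FPKM (-0.62, adjusted p = 0.00165).

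The Ire1 and Atf6 branches of the unfolded protein response, which act beside PERK, had 7 of 14 genes called lower (11.6% of all tested genes were) and none higher, with a median of -0.43. The chaperone *Hyou1* fell from 12.2 ± 1.47 to 7.95 ± 0.79 FPKM (-0.86, adjusted p = 0.000627), and the disulfide isomerase *Pdia4* fell from 64.1 ± 2.97 to 42.2 ± 8.56 FPKM (-0.85, adjusted p = 0.00121). Without scaling beyond the total count 3 of 14 were called lower and none higher. Without control A475, 12 genes over the 9 lists were called lower rather than 17. Some calls of the Ire1 and Atf6 list were among those lost, while *Hyou1* and *Pdia4* stayed called. Of 9 tested immediate early genes, which respond to many stimuli, 5 were called higher (10.9% of all tested genes were) and none lower (median 0.68). *Ier3* rose from 1.43 ± 0.32 to 5.33 ± 2.14 FPKM (1.63, adjusted p = 0.00375) and *Myc* from 3.02 ± 0.46 to 10.8 ± 4.33 FPKM (1.59, adjusted p = 0.00119).

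**Figure D5:**
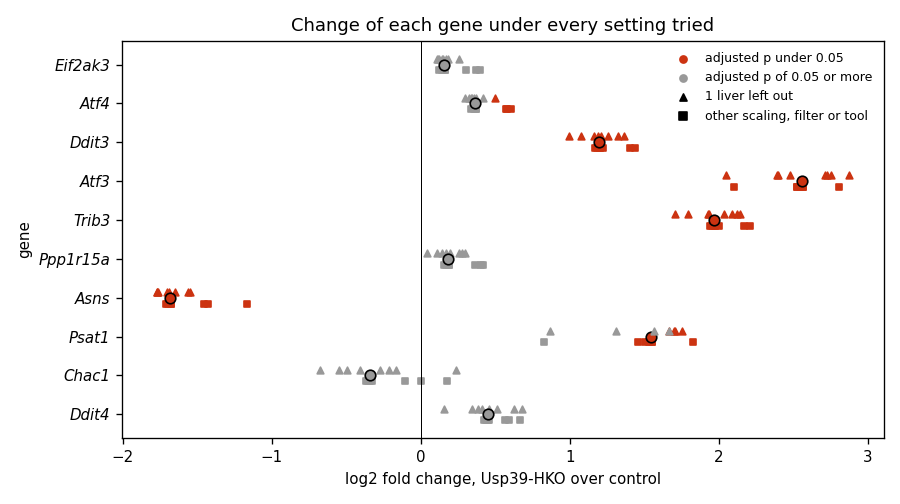
Log2 fold change of each of the 10 genes under the reported fit and 15 alternatives (other scaling, tools and filters, and each liver left out). *Atf3*, *Ddit3* and *Trib3* stay above 0 and *Asns* below it in all of them, whereas *Chac1* runs from -0.67 to 0.24.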

How the data were processed

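Liver RNA was extracted with TRIzol and sequenced as 1 library per mouse. Per the labels, reads were trimmed with Trim Galore (0.6.1), checked with FastQC (0.11.9), aligned to mm10 with HISAT2 and counted per gene with featureCounts, and Picard and DESeq2 are also named. The annotation release and strand setting are not given in the sources used here. The authors deposited raw counts per gene and liver, FPKM computed from these counts, the gene length and the total count, and the gene lengths themselves (in bases). Recomputed FPKM differed from the deposited FPKM by at most 2e-07 as a share. The deposited table also holds the authors' DESeq2 comparison (mean signal, log2 fold change, its error and statistic, p-values and a call), which was not used. Of 55699 entries, 314 repeated an identifier and were read once, and 55144 identifiers (99.6%) were in GENCODE vM21, which gave coordinates (GRCm38).

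The 14340 genes that reached 0.5 FPKM in 4 or more of the 8 livers were tested on counts with edgeR 4.0.16 (TMM, glmQLFit, glmQLFTest, two-sided) and Benjamini-Hochberg adjustment over all of them, threshold 0.05. TMM factors lay between 0.911 and 0.94 for controls and between 1.012 and 1.189 for knockouts, and before scaling the median over tested genes of the difference in log2(FPKM + 1), *Usp39*-HKO minus control, was 0.17, so changes are given relative to the TMM-scaled level. Errors are SD between livers or SE of the fit. Counts of livers of one genotype differed beyond the error of counting, with chi-square values of 6.4 to 32.9 for each degree of freedom. Promoters were RefSeq sequences. The fit was tested on simulated data.

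The genes and lists were chosen with earlier results of these data known. Named genes were the 10 members, *Usp39*, up to 2 rises and 2 falls with the largest log2 fold change among the called genes of each list, and the 5 genes with profiles nearest to *Atf4*. Alternatives were median-ratio scaling, no scaling beyond the total, DESeq2 1.42.0, limma 3.58.1 on log2(FPKM + 1) or log2(FPKM + 0.1), other filters, the study's cutoff and each liver left out.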

Additional observations from a re-analysis of the deposited data

Results flagged for a closer look

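Of 88 groups of 4 livers checked (34 named genes and 10 marker sums in each genotype), 4 held a liver far from the others by Dixon's criterion, which chance meets in about 1 in 20 groups. *Psat1* was at 4.59 FPKM in *Usp39*-HKO liver A474, where the nearest liver had 1.31 FPKM. *Shmt2* was at 55.6 FPKM in *Usp39*-HKO liver A470, with the nearest at 46.1 FPKM. *Maf1* was at 13.0 FPKM in control A472, with the nearest at 10.8 FPKM. The summed pancreatic acinar markers were at 527 FPKM in control A475, with the nearest control at 0.687 FPKM. Without A475, *Atf3* (log2 fold change 2.39), *Ddit3* (1.16), *Trib3* (2.04) and *Asns* (-1.70) were still called, and *Psat1* (1.31, adjusted p = 0.0953) was not.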

How the results depend on the processing

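*Atf3*, *Ddit3*, *Trib3* and *Asns* were called in the same direction in 15 of 15 alternatives, and *Psat1* in 10 of 15. The *Psat1* call was lost with limma on log2(FPKM + 1) (0.83, adjusted p = 0.0659) and without A468 (1.67, 0.0572), A473 (1.57, 0.0754), A474 (0.87, 0.0769) or A475 (1.31, 0.0953). *Atf4* was called in 4 of 15, with log2 values of 0.30 to 0.60 and adjusted p from 0.00835 to 0.204. *Chac1* changed sign with limma on log2(FPKM + 1) (0.0054) or log2(FPKM + 0.1) (0.18) and without A473 (0.24), and with each liver left out it ranged from -0.67 to 0.24. The *Atf4* neighbours *Polr1c*, *Maf1*, *Snrpe* and *Tmem159* were called without scaling and with both limma settings, and the first 3 also without A470. Over the 9 lists, 12 genes were called higher, but 24 without scaling beyond the total, 23 with limma on log2(FPKM + 1) and 22 with log2(FPKM + 0.1), and 17 were called lower, but 8 in each of these 3 settings. *Usp39* was at -0.18 (adjusted p = 0.247), -0.16 (0.168) and -0.18 (0.164) in the same 3 settings and did not pass. With each liver left out it ranged from -0.45 to -0.35, not passing without A474 (0.0615) or A475 (0.0547). Over the 9 lists, 12 genes rather than 17 were called lower without A473, A474 or A475. Of all tested genes, 48.4% of calls were higher, compared with 83.5% without scaling, 82.6% with limma on log2(FPKM + 1) and 83.0% with log2(FPKM + 0.1). With each liver left out, the number of genes called (3225 with all livers) ranged from 1931 without A473 to 3510 without A469, with 2094 without A474 and 2043 without A475. The causes of these shifts were not tested. Counts of 3 to 23 limited *Chac1*. No paired analysis was possible because the labels number no replicates and tie no control to a knockout by litter.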
